A study of Mus musculus with 10 samples.

Results

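The genes that build and guard the primary cilium were followed in mouse kidneys in which a Cre driver deletes floxed Pkd2, with and without miR-21. The set holds 51 genes named by their place in the cilium (intraflagellar transport, the BBSome, the transition zone and the inversin compartment), and all 51 were found by symbol among the 30431 rows of each deposited table. The RNA is that of the entire kidney from 10 mice, taken 21 days after birth. The 4 wild-type animals (WT) were compared with 3 animals of the genotype Pkhd1Cre; Pkd2 F/F (SM) and 3 of the genotype Pkhd1Cre; Pkd2 F/F; miR-21null (DM). Both mutant groups therefore carry the same driver and the same floxed Pkd2 alleles, and they differ by the loss of miR-21. Both are compared with the same WT animals, whose labels name no Cre or floxed allele. Pkhd1Cre is active in the collecting duct, so most kidney cells lie outside its range. Pkd2 encodes polycystin-2, a channel of the ciliary membrane, and in the authors' deposited tables its log2 fold change was -0.41 (standard error, SE, 0.20, implied by the test statistic; adjusted p = 0.179) in SM versus WT and -0.49 (SE 0.20, adjusted p = 0.0838) in DM versus WT. Neither value passed the threshold, and the row covers the whole gene and all kidney cells. Positions below are gene spans of GENCODE mouse release 21 on GRCm38.

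The primary cilium is a single antenna that projects from most tubule cells into the urine. Intraflagellar transport carries cargo along its microtubules: the IFT-B complex with kinesin moves outward, and the IFT-A complex with the dynein-2 motor returns. The BBSome, a coat of Bardet-Biedl syndrome proteins, moves membrane receptors out of the cilium, and the transition zone at its base is the gate that decides what enters. Polycystins work in the ciliary membrane, and mutations in many of the genes described here cause cystic kidneys, nephronophthisis, Joubert syndrome or Meckel syndrome.

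None of the 51 genes passed the test in either mutant. The set was chosen with earlier results of these data known, so this count describes the set and is no independent test. In SM versus WT the authors' deposited table called 0 of 51 members at an adjusted p below 0.05 (edgeR's likelihood ratio test), where 14 percent of all rows and 21.6 percent of rows averaging at least 1 CPM (read counts scaled to library size) were called. In DM versus WT it was 0 of 51 members, beside 13.5 percent of all rows and 19.8 percent of rows of at least 1 CPM in the authors' deposited table. The members average between 4.64 CPM (Nphp4) and 61.3 CPM (Dync2li1), and among the 8358 other rows in that range of levels 19.6 percent were called in SM versus WT and 17.5 percent in DM versus WT in the authors' deposited tables. At an unadjusted p below 0.05 the authors' deposited table held 2 members in SM versus WT (Ift20 and Wdr19) and 0 in DM versus WT, beside 30.2 and 28.5 percent of rows in that range. In bulk tissue, fewer cells of a type and less RNA per cell cannot be told apart, and this holds for every value below.

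The members' fold changes were also small. Their log2 fold changes ran from -0.48 to 0.47 in SM versus WT (median 0.076) and from -0.38 to 0.55 in DM versus WT (median 0.047) in the authors' deposited tables. The median absolute log2 fold change was 0.17 for the members and 0.28 for rows of their level range in SM versus WT, and 0.18 and 0.26 in DM versus WT, computed from the authors' deposited tables. Absolute log2 changes above 0.5 were found for 0 members and for 29.9 percent of rows of that range in SM versus WT, and for 1 member (Bbs12) and 27.8 percent of rows in DM versus WT, in the authors' deposited tables. The median SE, the fold change divided by the root of its test statistic, was 0.23 for the members and 0.24 for rows of that range in each of these comparisons. The members' fold changes were thus measured with an error like that of other genes of their level.

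**Figure D1:**
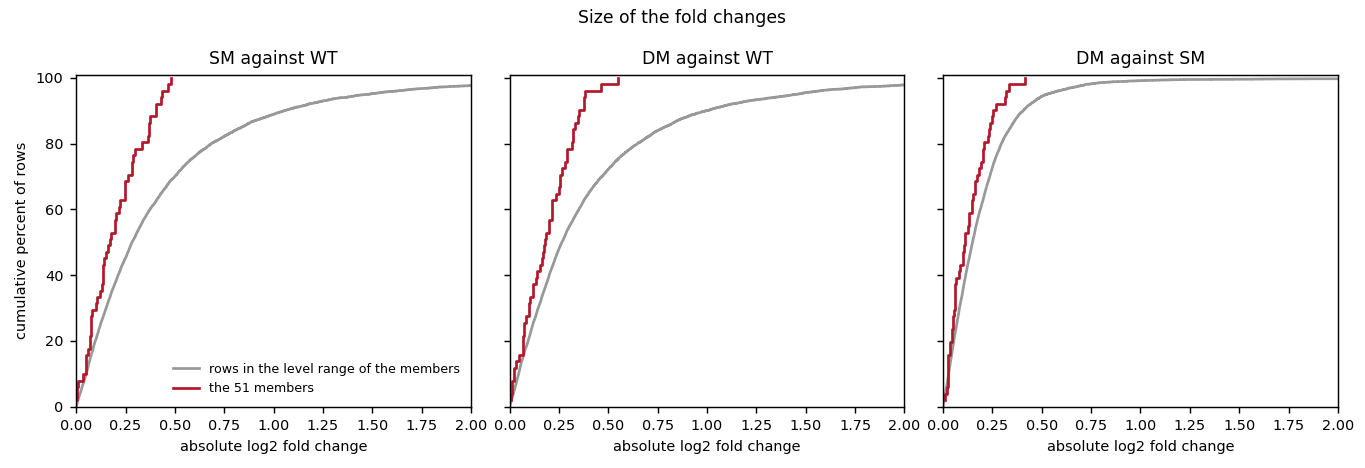
Cumulative percent of rows (vertical axis) by absolute log2 fold change (horizontal axis) for the 51 members and for the 8358 other rows in their range of average levels, 1 panel for each deposited comparison. In SM versus WT the line of the members reaches 100 percent at 0.48, where 31.3 percent of the other rows still lie beyond.

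A p that misses a threshold leaves room for a change, so intervals were set around each fold change. With 95% intervals from the SE, 51 of 51 members lay wholly within a 2-fold change in SM versus WT, and 50 of 51 did in DM versus WT, from the authors' deposited tables. The exception was Bbs12, whose interval in DM versus WT ran from -0.019 to 1.11 on the log2 scale in the authors' deposited table. The widest reach below 0 was that of Tmem216 in SM versus WT, with a lower bound at -0.997 in the authors' deposited table, just inside a 2-fold change. Among rows of the same level range, 69.2 percent in SM versus WT and 72.0 percent in DM versus WT had intervals within 2-fold in the authors' deposited tables. A tighter statement is not possible for most members: intervals lay within a 1.5-fold change for 21 members in SM versus WT and for 22 in DM versus WT, from the authors' deposited tables. The tables hold no value per animal, so animals cannot be shown singly. This SE takes the fitted spread as known and may be too small.

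**Figure D2:**
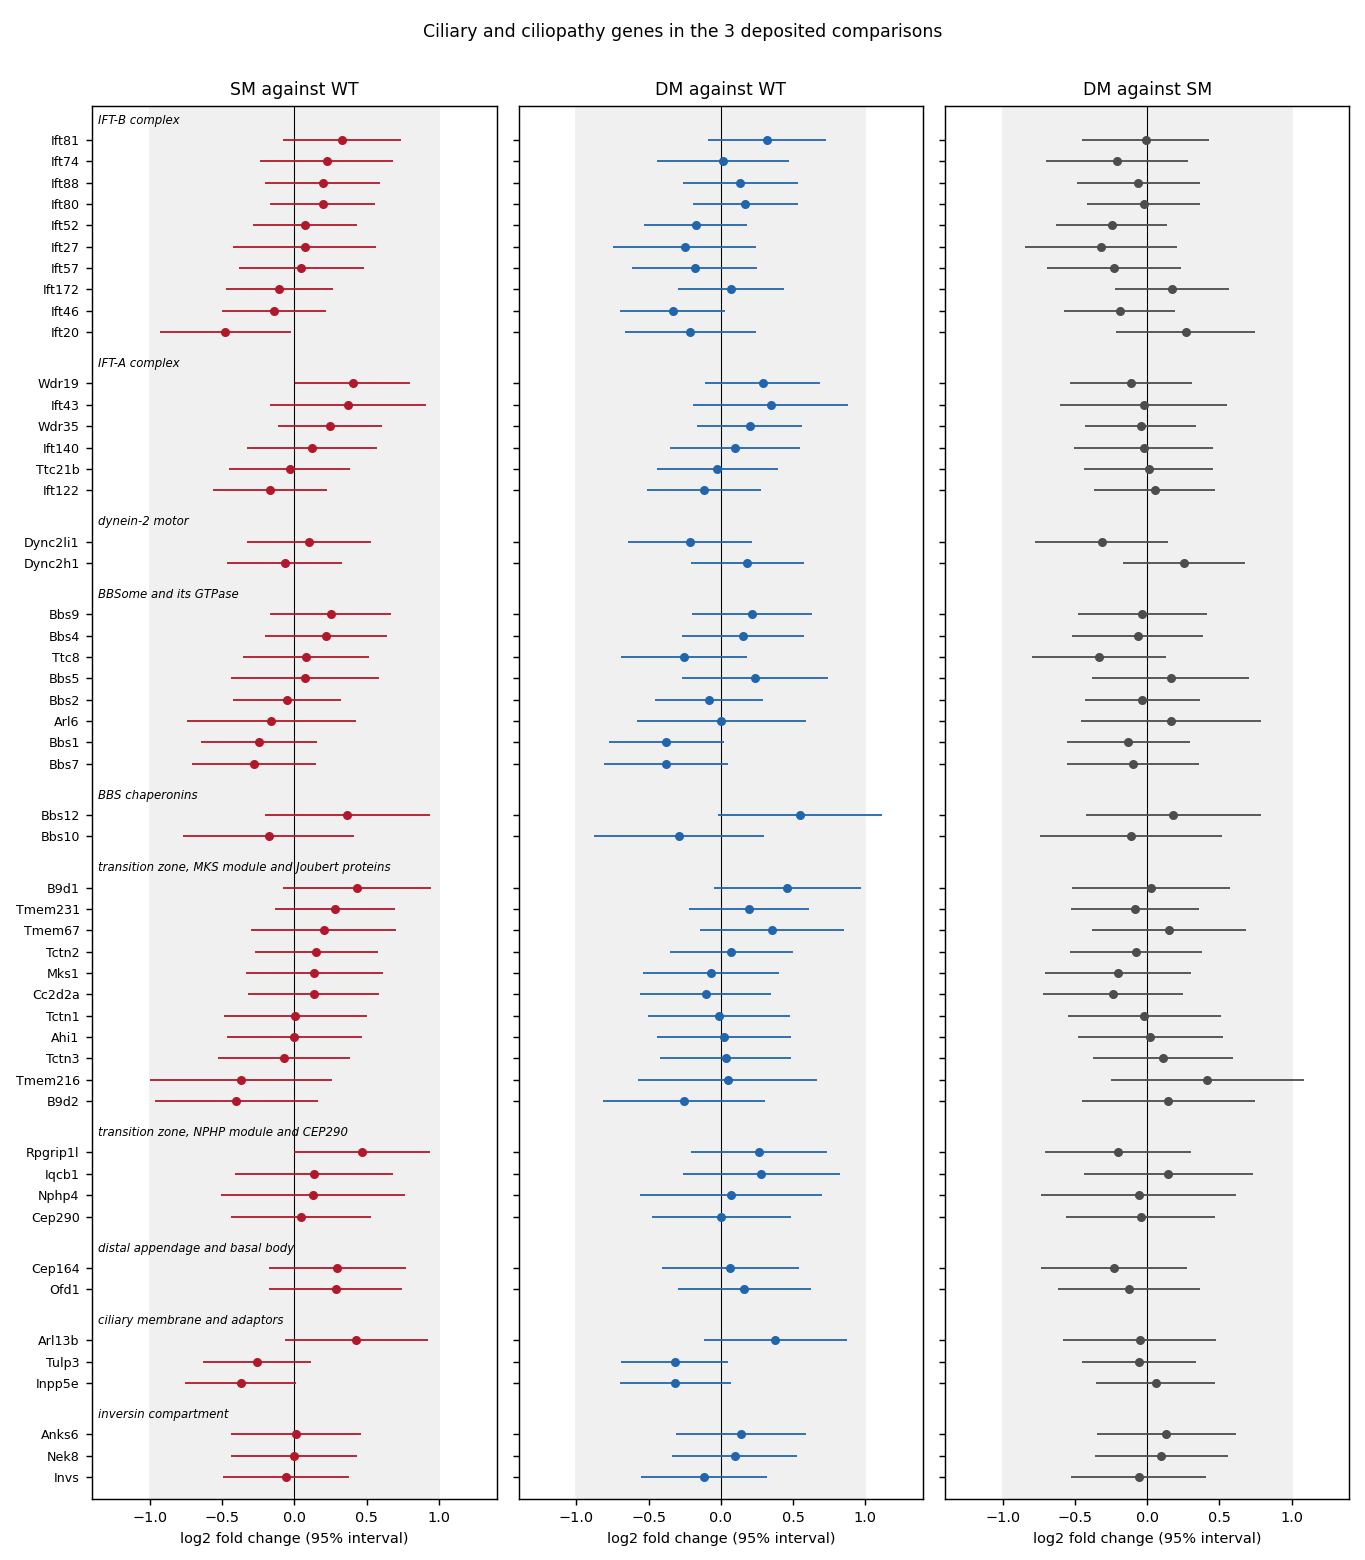
Log2 fold change (horizontal axis) of each of the 51 members with its 95% interval from the SE, by functional group (rows), in SM versus WT, DM versus WT and DM versus SM. Grey marks a change of less than 2-fold: 51, 50 and 50 intervals lie wholly inside it, and the exceptions are Bbs12 in DM versus WT and Tmem216 in DM versus SM.

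The promoters of the members were searched for a sequence feature that the choice of the genes did not use. Regulatory factor X (RFX) proteins bind a palindrome called the X-box, and they are known to drive ciliary genes. RefSeq promoters of GRCm38.p6 (250 bases before to 50 after the first listed start of a gene) were found for 45 of the 51 members and for 27025 genes in all. The 6-base core GTTGCC, searched on both strands (GGCAAC on the other), stood in 20 of 45 member promoters (44.4 percent) and in 12.7 percent of all promoters. A whole X-box was searched as GTTGCCNNGGCAAC, a palindrome that reads the same on both strands and holds the core on each strand, with up to 1 mismatch in each core. It was present in 9 of 45 member promoters (20 percent), against 1.77 percent of all promoters and 2.02 percent of promoters of genes of at least 1 CPM. The 9 matches are shown as the members that hold this feature, with the 14 bases of the box in capitals, on the strand of the gene:
Ahi1: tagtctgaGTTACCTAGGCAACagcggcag
B9d1: taccgtctGTTTCCAAGACAACcgagagcc
B9d2: aacctgctGTTGCCCCAGCAACagtcgggg
Bbs1: ctgagctgGTTGCCAAGGCGACgcctggga
Bbs4: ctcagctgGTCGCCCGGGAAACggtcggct
Bbs7: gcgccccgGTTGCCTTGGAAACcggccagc
Mks1: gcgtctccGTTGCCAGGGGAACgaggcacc
Tctn1: gcgctaggctgtgactGTTGCCCGGGCAAC
Tctn2: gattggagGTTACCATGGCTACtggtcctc

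These windows lie at chr10:20952560-20952589 (Ahi1, plus strand), chr11:61505130-61505159 (B9d1, plus), chr7:25680788-25680817 (B9d2, plus), chr19:4906605-4906634 (Bbs1, minus), chr9:59353464-59353493 (Bbs4, minus), chr3:36613489-36613518 (Bbs7, minus), chr11:87853183-87853212 (Mks1, plus), chr5:122264411-122264440 (Tctn1, minus) and chr5:124598679-124598708 (Tctn2, plus). Tctn1 alone among the 45 matched both cores without a mismatch, which 0.0888 percent of all promoters did. Transition zone genes made up 6 of the 9 (Ahi1, B9d1, B9d2, Mks1, Tctn1 and Tctn2) and BBSome genes the other 3. The transition zone has 11 members in its Meckel and Joubert module and 4 in its nephronophthisis module, not all with a promoter. The BBSome group has 8 members. The 9 genes had a median log2 fold change of 0.0048 in SM versus WT (from -0.40 for B9d2 to 0.43 for B9d1) and of -0.014 in DM versus WT in the authors' deposited tables. The other 36 members with a promoter had medians of 0.074 and 0.057 in the authors' deposited tables. A match to letters is not evidence that a factor was bound there.

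The IFT-B complex, the outward train, held 10 members, of which 0 passed in SM versus WT or DM versus WT in the authors' deposited tables. Ift20, which links the train to the Golgi apparatus, had the lowest value of the whole set in SM versus WT. Its estimated level was 47.9 CPM in WT, 34.4 CPM in SM and 41.4 CPM in DM, from the authors' deposited tables. The log2 fold change was -0.48 (SE 0.23, p = 0.04, adjusted p = 0.183) in SM versus WT and -0.21 (SE 0.23, adjusted p = 0.703) in DM versus WT in the authors' deposited tables. SM is the lowest of these levels and DM lies between it and WT, but the difference between the mutants, 0.27 (SE 0.25), did not pass either (adjusted p = 1 in the authors' deposited table). Ift88, whose partial loss gives cystic kidneys in mice, stood at 19.3 CPM in WT, 22.1 CPM in SM and 21.2 CPM in DM, from the authors' deposited tables. Its log2 fold changes of 0.20 (95% interval -0.20 to 0.60) and 0.14 (-0.26 to 0.53) versus WT in the authors' deposited tables lie within a 2-fold change at both ends of their intervals. Ift74 and Ift81, partners that bind tubulin, stood at 0.22 (SE 0.23) and 0.33 (SE 0.21) in SM versus WT in the authors' deposited table. Over the 10 genes the SM versus WT values had a median of 0.072 and ran up to the 0.33 of Ift81, and those of DM versus WT ran from -0.33 (Ift46) to 0.32 (Ift81) with a median of -0.080, in the authors' deposited tables.

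In the IFT-A complex, the return train, 0 of 6 members passed in SM versus WT or DM versus WT in the authors' deposited tables. Wdr19 (chr5:65199696-65260415), a core subunit mutated in nephronophthisis, had an estimated level of 19.5 CPM in WT, 25.7 CPM in SM and 23.8 CPM in DM, from the authors' deposited tables. Both mutant levels are above WT, with log2 fold changes of 0.40 (SE 0.20, p = 0.0473, adjusted p = 0.205) and 0.29 (SE 0.20, adjusted p = 0.442) in the authors' deposited tables. Ift43 stood at 0.37 (SE 0.28) and Wdr35 at 0.24 (SE 0.18) in SM versus WT in the authors' deposited table. Ift140, another subunit behind cystic and skeletal ciliopathies, was at 0.12 (SE 0.23), Ttc21b at -0.033 (SE 0.21) and Ift122 at -0.17 (SE 0.20) in SM versus WT in the authors' deposited table. The group's median was 0.18 in SM versus WT and 0.15 in DM versus WT in the authors' deposited tables.

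Of the dynein-2 motor, which powers the return, the heavy chain Dync2h1 stood at -0.069 (SE 0.20) and the light intermediate chain Dync2li1 at 0.10 (SE 0.22, adjusted p = 0.961) in SM versus WT in the authors' deposited table. Dync2li1 (chr17:84626496-84655588) was estimated at 62.5 CPM in WT, 67.0 CPM in SM and 53.9 CPM in DM, from the authors' deposited tables. DM was the lowest group for this light intermediate chain. For the heavy chain DM was the highest, at 39.5 CPM against 34.8 CPM in WT and 33.2 CPM in SM, from the authors' deposited tables. Neither difference between the mutants passed.

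Among BBSome genes 0 of 8 passed in SM versus WT or DM versus WT in the authors' deposited tables, and as many lay above 0 as below it (4 and 4 in each). Bbs7 (chr3:36573142-36613477) had the largest absolute log2 fold change of the group in SM versus WT. Its estimated level was 22.9 CPM in WT, 18.8 CPM in SM and 17.6 CPM in DM, from the authors' deposited tables. This gave log2 fold changes of -0.28 (SE 0.22, adjusted p = 0.522) and -0.38 (SE 0.22, adjusted p = 0.3) in the authors' deposited tables. Bbs1, the subunit that the GTPase Arl6 binds to bring the coat to membranes, stood at -0.25 (SE 0.20) and -0.38 (SE 0.20) versus WT in the authors' deposited tables. Other subunits of the same complex lay above 0 in both: Bbs9 at 0.25 and 0.22, and Bbs4 at 0.22 and 0.15, each with an SE of 0.21 or 0.22, in the authors' deposited tables. The chaperonin-like genes Bbs10 and Bbs12 help to assemble the coat. Bbs12 (chr3:37312554-37321453) was estimated at 4.32 CPM in WT, 5.56 CPM in SM and 6.31 CPM in DM, from the authors' deposited tables. Its log2 fold changes versus WT were 0.37 (SE 0.29, adjusted p = 0.537) and 0.55 (SE 0.29, adjusted p = 0.239) in the authors' deposited tables, and the second is the largest of the set in either comparison with WT.

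The gate of the cilium, the transition zone, held 11 genes of the Meckel and Joubert module, of which 0 passed in SM versus WT or DM versus WT in the authors' deposited tables. B9d1 and B9d2, partners in one complex of B9 domain proteins, stood at opposite ends of it. B9d1 (chr11:61505144-61512931) was estimated at 12.5 CPM in WT, 16.8 CPM in SM and 17.2 CPM in DM, from the authors' deposited tables, with log2 fold changes of 0.43 (SE 0.26, adjusted p = 0.329) and 0.46 (SE 0.26, adjusted p = 0.285). B9d2 was estimated at 15.1 CPM in WT, 11.4 CPM in SM and 12.7 CPM in DM, with -0.40 (SE 0.29, adjusted p = 0.462) and -0.26 (SE 0.29, adjusted p = 0.718), in the authors' deposited tables. Mks1, also a B9 domain protein, was at 0.14 (SE 0.24) and -0.067 (SE 0.24) in the authors' deposited tables. The tectonics Tctn1, Tctn2 and Tctn3, secreted and membrane proteins of the gate, lay within -0.074 and 0.15 in SM versus WT in the authors' deposited table. Tmem67, the receptor meckelin, was at 0.20 (SE 0.26) and 0.35 (SE 0.25), and Cc2d2a and Ahi1 stayed between -0.11 and 0.13 in both comparisons with WT in the authors' deposited tables.

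In the nephronophthisis module of the gate the 4 members had a median of 0.13 in SM versus WT in the authors' deposited table, and 0 passed. Rpgrip1l (chr8:91217030-91313262), a scaffold that joins the modules, had the highest value of the whole set in SM versus WT. It was estimated at 11.3 CPM in WT, 15.6 CPM in SM and 13.6 CPM in DM, from the authors' deposited tables. Its log2 fold changes were 0.47 (SE 0.24, p = 0.0523, adjusted p = 0.22) in SM versus WT and 0.27 (SE 0.24, adjusted p = 0.597) in DM versus WT in the authors' deposited tables. Cep290, the protein that ties the gate's membrane to its microtubules, was nearly level at 15.2 CPM in WT, 15.7 CPM in SM and 15.2 CPM in DM, from the authors' deposited tables (interval -0.44 to 0.53 in SM versus WT). Nphp4 and Iqcb1 stood at 0.13 (SE 0.32) and 0.14 (SE 0.28) in SM versus WT in the authors' deposited table. At the basal body, Cep164 (chr9:45766946-45828691) of the distal appendages was at 0.30 (SE 0.24, adjusted p = 0.547) and Ofd1, on chromosome X, at 0.29 (SE 0.24) in SM versus WT, and at 0.066 and 0.16 in DM versus WT, in the authors' deposited tables.

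Genes of the ciliary membrane split by sign without passing. The GTPase Arl13b (chr16:62793685-62847040) was estimated at 14.8 CPM in WT, 19.9 CPM in SM and 19.2 CPM in DM, from the authors' deposited tables, with log2 fold changes of 0.43 (SE 0.25, adjusted p = 0.316) and 0.38 (SE 0.25, adjusted p = 0.408). The lipid phosphatase Inpp5e, which depends on Arl13b to reach the cilium, stood at -0.37 (SE 0.20, adjusted p = 0.236) and -0.32 (SE 0.20, adjusted p = 0.356) in the authors' deposited tables. Its exons share 20.3 percent of their bases with Pmpca on the opposite strand, and the sources used here do not say whether the counting used strand. Tctn1 shares 19.0 percent with Hvcn1 in the same way, and the other 49 members share less than 10 percent with any gene. Tulp3, the adaptor that carries receptors and polycystins into the cilium with IFT-A, was at -0.26 (SE 0.19) and -0.32 (SE 0.19) in the authors' deposited tables.

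The inversin compartment, the stretch of cilium just above the gate, gave the flattest values of all groups in SM versus WT. Its 3 genes are Invs (inversin), the kinase Nek8 and Anks6, an activator of that kinase, and mutation of each is known to cause cystic kidneys. Invs (chr4:48279760-48431954) was estimated at 25.7 CPM in WT, 24.7 CPM in SM and 23.7 CPM in DM, from the authors' deposited tables. Nek8 stood at 19.9 CPM in both WT and SM and at 21.3 CPM in DM, from the authors' deposited tables. Anks6 stood at 23.9 CPM, 24.1 CPM and 26.4 CPM in the same order, from the authors' deposited tables. In SM versus WT the log2 fold changes were -0.059 (SE 0.22), -0.0021 (SE 0.22) and 0.0093 (SE 0.23) in the authors' deposited table. None of the intervals reached 0.5 in either direction there, the widest side being the -0.496 of Invs in the authors' deposited table.

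Per kilobase of exon, the members covered a wide range of levels in WT, from 0.736 CPM per kb for Nphp4 to 33.4 CPM per kb for Dync2li1 (median 3.34), estimated from the authors' deposited tables and exon lengths of GENCODE mouse release 21. Ift20 was second at 31.4 CPM per kb and Ift52 next at 15.7 CPM per kb on that estimate. The least abundant genes per kb were those of the nephronophthisis module and Tmem67: Rpgrip1l at 0.769, Tmem67 at 1.04, Iqcb1 at 1.16 and Cep290 at 1.31 CPM per kb. The length used joins all annotated exons of a gene, so the order depends in part on how many transcripts are annotated. Differences between groups, at most 0.55 on the log2 scale in the authors' deposited tables, were small beside this range. The medians over members were 3.34 CPM per kb in WT, 3.71 CPM per kb in SM and 3.26 CPM per kb in DM.

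**Figure D3:**
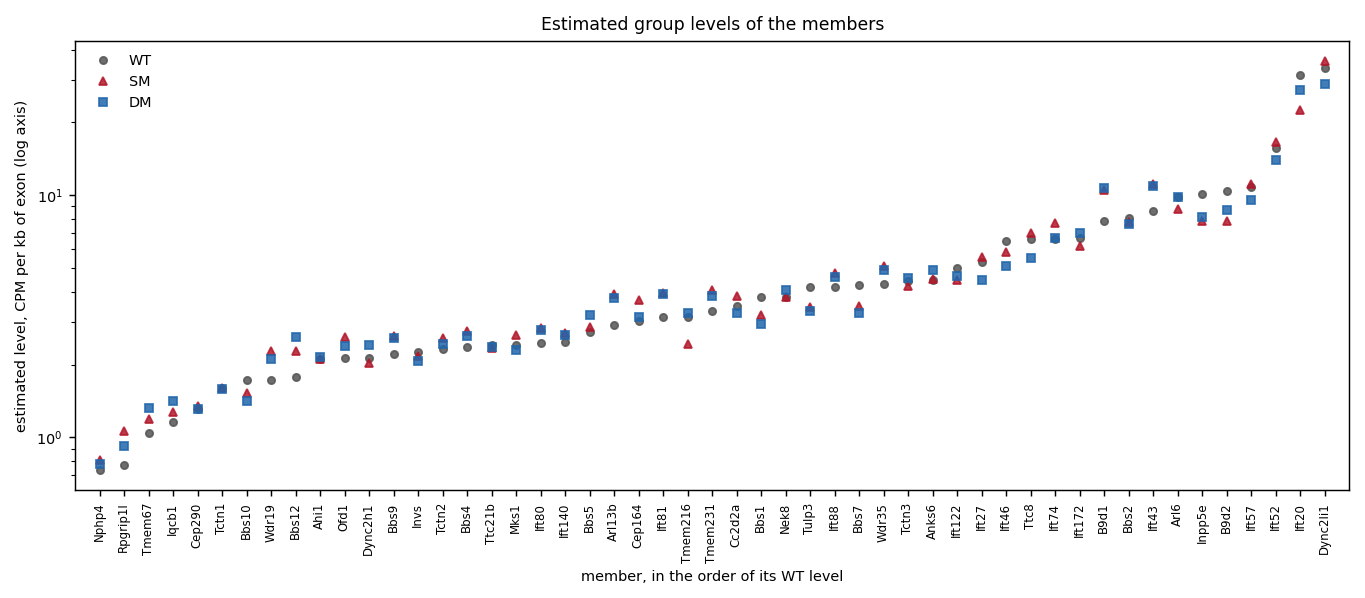
Estimated level of each of the 51 members in WT, SM and DM in CPM per kb of exon (vertical axis, log scale), in the order of the WT level (horizontal axis). Levels run from 0.736 CPM per kb (Nphp4) to 33.4 CPM per kb (Dync2li1) in WT, and the 3 groups lie close together for each gene.

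Loss of miR-21 on top of Pkd2 was tested by DM versus SM. Here 0 of 51 members passed in the authors' deposited table, beside 0.0789 percent of all rows, 0.0859 percent of rows of at least 1 CPM and 0.0957 percent of rows in the members' level range, so few calls were made anywhere and the count says little about the members. At an unadjusted p below 0.05 it was also 0 of 51, beside 2.79 percent of rows of that range in the authors' deposited table. Log2 fold changes ran from -0.33 (Ttc8) to 0.41 (Tmem216) with a median of -0.043 in the authors' deposited table. Intervals lay within 2-fold for 50 of 51 members, beside 87.9 percent of rows in that level range. Tmem216, a transmembrane protein of the gate, was the exception, with an interval from -0.25 to 1.08 in the authors' deposited table. The 3 lowest p-values belonged to the BBSome subunit Ttc8 at -0.33 (SE 0.24, p = 0.158), Dync2li1 at -0.31 (SE 0.24, p = 0.182) and Ift52 at -0.25 (SE 0.19, p = 0.206), each with an adjusted p = 1 in the authors' deposited table. Ttc8 (chr12:98920574-98983238) was estimated at 24.9 CPM in WT, 26.3 CPM in SM and 20.9 CPM in DM, and Ift52 (chr2:163017354-163046141) at 44.1 CPM, 46.4 CPM and 39.1 CPM, so that DM was the lowest group for both, from the authors' deposited tables.

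A miRNA lowers transcripts that carry a match to its seed, bases 2 to 8, in the 3′ UTR. The mature miR-21a-5p (RefSeq, GRCm38.p6, chr11:86584120-86584141, minus strand) is shown with its seed in capitals, beside the only match found among the members, in Tmem231, with the word ATAAGCT in capitals:
mmu-miR-21a-5p: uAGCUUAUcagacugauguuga
Tmem231: ctatctcctatcATAAGCTagccgctttct

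The word lies at chr8:111913518-111913524 (GRCm38, minus strand), at base 944 of the 2395 bases of the longest annotated 3′ UTR of Tmem231, a gate protein that holds the Meckel and Joubert module together. It was the only member of 50 with an annotated 3′ UTR to hold the word (2 percent), against 8.50 percent of 12828 genes of at least 1 CPM. The longest 3′ UTRs of the members had a median of 868 bases, and those of these genes one of 1366.5 bases. Tmem231 was estimated at 17.9 CPM in WT, 21.8 CPM in SM and 20.5 CPM in DM, from the authors' deposited tables. The difference between the mutants did not pass: the log2 fold change in DM versus SM was -0.085 (SE 0.23, p = 0.71, adjusted p = 1), with an interval from -0.53 to 0.36, in the authors' deposited table. Against WT it stood at 0.28 (SE 0.21, adjusted p = 0.503) in SM and 0.20 (SE 0.21, adjusted p = 0.7) in DM in the authors' deposited tables.

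Genes close to a knocked-out locus can differ between strains, so members within 10 Mb of the miR-21 gene (chr11:86584067-86584158) are given by themselves. Mks1 (chr11:87853215-87863803) is the nearest, 1.27 Mb away, and its log2 fold change in DM versus SM was -0.20 (SE 0.26, p = 0.428, adjusted p = 1) in the authors' deposited table. Ift20 (chr11:78536361-78541737, 8.04 Mb away) stood at 0.27 (SE 0.25, p = 0.281) and Nek8 (chr11:78166106-78176675, 8.41 Mb away) at 0.099 (SE 0.24, p = 0.676) in the authors' deposited table. None passed, and the signs were mixed. The comparison cannot tell strain from genotype.

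Other ciliary genes, listed by role and outside the 51, were read in the same tables, where of rows of at least 1 CPM 12.2 percent rose and 9.47 percent fell in SM versus WT and 11.3 percent rose and 8.53 percent fell in DM versus WT. Of 18 further IFT, kinesin and BBS genes 0 passed in SM versus WT and 0 in DM versus WT in the authors' deposited tables, with medians of -0.0091 and -0.062. The lowest adjusted p there was that of the chaperonin Mkks in SM versus WT, 0.0642, at a log2 fold change of -0.58 (SE 0.22) in the authors' deposited table. The exons of Mkks share 29.3 percent of their bases with AL731706.1 on the same strand, so its count may be affected by that gene. Of 19 further transition zone and nephronophthisis genes 2 rose in SM versus WT and 1 in DM versus WT in the authors' deposited tables. Dcdc2a, a doublecortin protein of the ciliary shaft that is mutated in nephronophthisis, was estimated at 23.4 CPM in WT, 208 CPM in SM and 166 CPM in DM, from the authors' deposited tables. Both mutant levels are far above WT, with log2 fold changes of 3.15 (SE 0.33, adjusted p = 1.41e-18) and 2.82 (SE 0.33, adjusted p = 3.28e-15) in the authors' deposited tables. Rpgrip1, the paralogue of Rpgrip1l, rose by 0.92 (SE 0.32, adjusted p = 0.0321) in SM versus WT and stood at 0.60 (SE 0.32, adjusted p = 0.234) in DM versus WT in the authors' deposited tables.

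Genes that take cilia apart or duplicate centrioles were higher in part. Of 9 such genes 2 rose in SM versus WT and 3 in DM versus WT in the authors' deposited tables. Plk4, the kinase of centriole duplication, stood at 1.25 (SE 0.28, adjusted p = 1.92e-04) and 1.22 (SE 0.28), and Plk1 at 1.8 (SE 0.46, adjusted p = 0.00169) and 1.55 (SE 0.46), in the authors' deposited tables. Aurka, the kinase that starts disassembly, rose in DM versus WT at 1.14 (SE 0.42, adjusted p = 0.0476) and stood at 1.11 (SE 0.42, adjusted p = 0.058) in SM versus WT in the authors' deposited tables. Plk1, Plk4 and Aurka are also cell cycle genes, and mitosis genes moved with them: 11 of 11 rose in SM versus WT and 8 of 11 in DM versus WT in the authors' deposited tables. The disassembly factors Nedd9 and Hdac6 stood at -0.034 (SE 0.22) and -0.21 (SE 0.18) in SM versus WT in the authors' deposited table. Pkhd1, the polycystic kidney gene whose promoter drives the Cre, rose in DM versus WT at 0.71 (SE 0.22, adjusted p = 0.0133) and stood at 0.57 (SE 0.22, adjusted p = 0.0613) in SM versus WT in the authors' deposited tables, while Pkd1 was at 0.11 (SE 0.20) and 0.13 (SE 0.20).

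Of 9 genes that regulate ciliary transcription, 2 rose in each mutant, and both belong to motile cilia. Foxj1, the master regulator of motile cilia, was estimated at 0.615 CPM in WT, 5.61 CPM in SM and 7.12 CPM in DM, from the authors' deposited tables. It rose by 3.19 (SE 0.39, adjusted p = 6.91e-14) in SM versus WT and by 3.53 (SE 0.39, adjusted p = 6.92e-17) in DM versus WT in the authors' deposited tables. Gmnc, which starts the multiciliated cell programme, also rose, at 3.09 (SE 0.70, adjusted p = 2.24e-04) and 2.63 (SE 0.70, adjusted p = 0.00293) in the authors' deposited tables, from a row that averaged 0.251 CPM. Of the RFX genes 0 passed, with Rfx3 at 0.22 (SE 0.25) and 0.23 (SE 0.25) and Rfx2 at 0.34 (SE 0.35) and 0.11 (SE 0.35) in the authors' deposited tables. Among 19 measured motile cilium genes, Foxj1 included, 4 rose and 1 fell in SM versus WT, and 3 rose and 1 fell in DM versus WT, in the authors' deposited tables. Their median log2 fold change was 0.35 in SM versus WT, with 11 genes above 0 and 6 below. In DM versus WT the median was 0, with 9 above and 8 below, in the authors' deposited tables. Ccdc40 of this list rose in both, at 1.93 (SE 0.45, adjusted p = 3.81e-04) and 1.29 (SE 0.45, adjusted p = 0.0337), in the authors' deposited tables. The axonemal dynein gene Dnahc11 fell in both, at -0.99 (SE 0.33, adjusted p = 0.0242) and -0.97 (SE 0.32, adjusted p = 0.0244), in the authors' deposited tables. The summed level of the list, Foxj1 included, was 14.8 CPM in WT, 23.6 CPM in SM and 22.3 CPM in DM. Foxj1 alone, at 0.615 CPM, 5.61 CPM and 7.12 CPM in the same order, holds much of that difference. The sum therefore does not show a rise across the list. Of its 19 rows 6 averaged at least 1 CPM, and Sntn and Tmem212 stood at the lowest level of the tables. The part of such cells in the values was not tested.

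**Figure D4:**
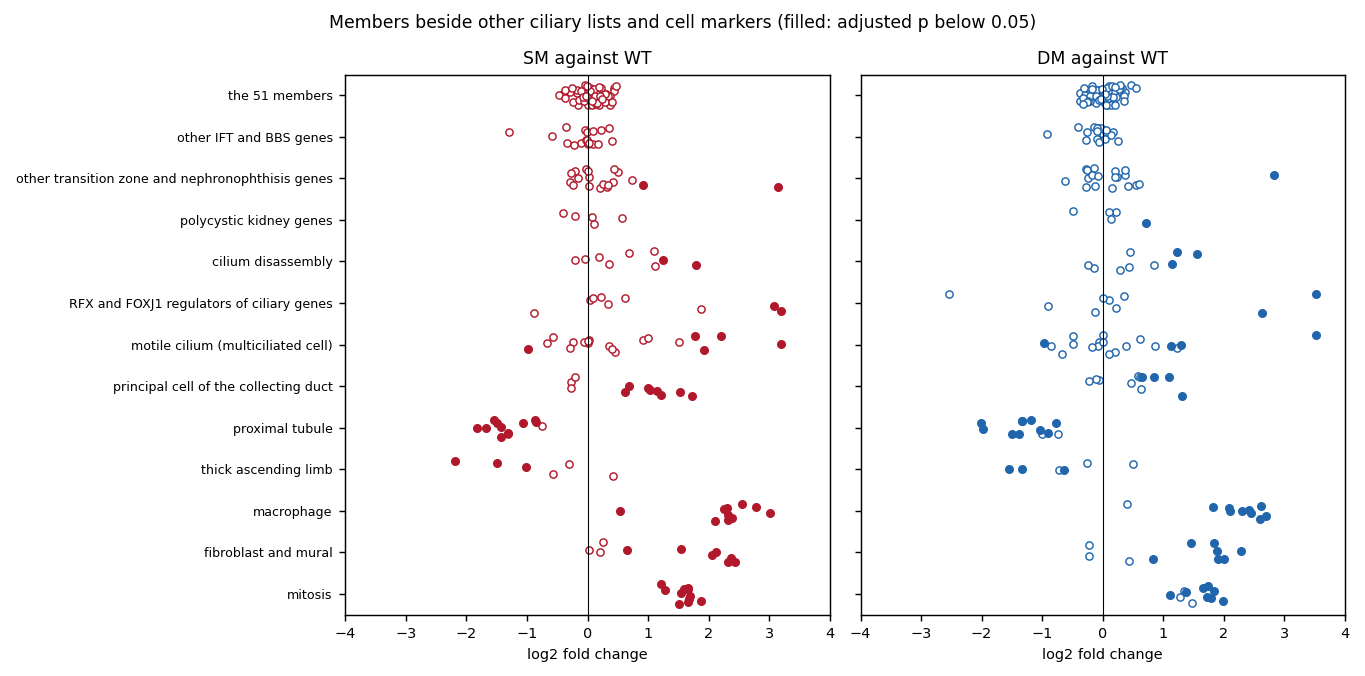
Log2 fold change (horizontal axis) of each gene in SM versus WT (left) and DM versus WT (right) for the 51 members, other ciliary lists and cell markers (rows); filled points passed an adjusted p of 0.05. The members sit between -0.48 and 0.55 with 0 filled points, while Foxj1, counted in the rows of RFX and FOXJ1 regulators and of motile cilium genes, lies above 3 in both panels.

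Markers of kidney cell types also differed between the groups in the authors' deposited tables. Of rows of at least 1 CPM, 12.2 percent rose and 9.47 percent fell in SM versus WT. In DM versus WT these shares were 11.3 and 8.53 percent. Proximal tubule markers fell for 10 of 12 genes in SM versus WT and for 10 of 12 in DM versus WT, with medians of -1.37 and -1.26. Principal cell markers, of the segment in which the driver acts, rose for 8 of 11 and 4 of 11 genes (summed level 1010 CPM in WT, 1563 CPM in SM and 1382 CPM in DM). In each comparison 3 of the 11 lay below 0 without passing. The lowest were Aqp2 at -0.28 in SM versus WT and Tfap2b at -0.22 in DM versus WT. Thick ascending limb markers fell for 3 of 6 genes in each comparison, while Cldn16 lay above 0 in both without passing, at 0.42 and 0.50. Macrophage markers rose for 10 of 10 and 9 of 10 genes (142 CPM in WT, 522 CPM in SM and 527 CPM in DM), and fibroblast and mural cell markers for 7 of 10 in each. In the fibroblast and mural list 2 genes lay below 0 in DM versus WT, the lowest being Pdgfra at -0.22. The summed level of the proximal tubule list was 26402 CPM in WT, 10658 CPM in SM and 11973 CPM in DM. Exons of some markers share bases with a gene on the opposite strand, among them Avpr2 (81.3 percent with Arhgap4), Tagln (62.4 percent with Gm48529) and Slc5a2 (20.6 percent with BC017158). Whether the counting used strand is not stated in the sources used here, so such rows may be affected. The part of these marker differences in the members' values was not tested.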

How the data were processed

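RNA of whole kidneys (4 WT, 3 SM and 3 DM mice, 1 library each) was sequenced from stranded total RNA libraries, per the labels' protocols. Tools named in the submitters' processing notes, with no roles, are edgeR 3.2.4, Subread 1.4.6, featureCounts, Cufflinks, TopHat2 2.0.12 and bcl2fastq 1.8.4, and the build is mm10. What the authors deposited is 3 tables, 1 for each pair of groups. Per the file headers, a row of the deposited tables pairs an average log2 CPM and a log2 fold change with a likelihood ratio score, its p-value and the adjusted p-value. Checked on the files, the p-value equals the upper tail of a chi-square distribution at the score, the adjusted p follows from Benjamini and Hochberg over the 30431 rows, and the fold changes subtract between tables, as contrasts of 1 fit. The deposited tables hold no value per library, so depth is unknown, and intervals from counts cannot be formed. The labels give each library an animal number.

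A gene was called where the authors' likelihood ratio test in edgeR gave an adjusted p under 0.05. The implied SE is the absolute log2 fold change over the root of the likelihood ratio score. Group levels in CPM were estimated from the deposited average, weighted by 4, 3 and 3 animals, and the fold changes, and they are approximate. Positions and exon lengths are those of GENCODE mouse release 21 (GRCm38, also called mm10), and 51 of 51 members matched. Of 140 other listed genes 139 matched a row, 8 of the total through an older symbol. Calculations used Python 3.11.15 with numpy 2.4.6, pandas 2.3.3, scipy 1.17.1 and matplotlib 3.10.9, and were tested on simulated data. Members were picked by rule if past the threshold, or if they had the largest SM against WT change in 1 of 10 groups. The rule also took the 3 lowest p-values in DM against SM, members within 10 Mb of the miR-21 gene and members with its seed word. Not every comparison is printed for each of these members. Other genes named for their roles were chosen after their values were seen. The members and lists were chosen with earlier results of these data known.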

Additional observations from a re-analysis of the deposited data

How the results depend on the processing

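The count of 0 of 51 members called in each of the 3 comparisons did not move with an adjusted p threshold of 0.01 or 0.1, with p adjusted over rows of at least 1 CPM or over rows with a gene name, or with fold changes centred on the median of rows of at least 1 CPM (-0.010 in SM against WT, 0.0022 in DM against WT and 0.0014 in DM against SM). The lowest adjusted p of any member was 0.128 in SM against WT and 0.179 in DM against WT, both over rows of at least 1 CPM. With a bound of 1.5-fold in place of 2-fold, the members with intervals inside it numbered 21 in SM against WT, 22 in DM against WT and 26 in DM against SM, and with 99% intervals within 2-fold they numbered 43, 45 and 49. The 6-base word TAAGCT stood in the 3′ UTR of 7 members (14 percent, against 27.9 percent of genes) where the 7-base word stood in 1. The full X-box was found in 9 promoters where the 6-base core was found in 20. Leaving out each library could not be run, since the tables hold no value per library. No paired analysis was possible because the groups share no animal number and the tables hold no libraries. Depth is unknown, and the width of the intervals limits what can be said to changes of about 2-fold.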
